A study of Homo sapiens with 44 samples.

Results

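The genes described here are 10 genes of calcium handling at the sarcoplasmic reticulum (SR): RYR2, ATP2A2, PLN, SLN, CASQ2, TRDN, JPH2, HRC, SLC8A1 and TECRL. They were taken by symbol and matched through GENCODE to 10 of the 60499 gene identifiers in the count table. All 10 passed the filter on low counts and were tested with 22955 genes in all. RNA came from the human embryonic stem cell line H1 and was sequenced in 44 libraries as it was turned into cardiac cells. Pluripotent cells were kept on LN-521 (a recombinant laminin), and all other groups were on LN-521 with LN-221. Day 0 cells were in Nutristem medium. Cells at days 1 and 3 had received CHIR99021 (an inhibitor of GSK3, which switches Wnt signalling on) in medium with B27 without insulin. IWP2 (a blocker of Wnt secretion) was given at day 3 and named for day 5, days 7 and 9 had B27 without insulin alone, and days 11, 14, 20, 30 and 90 had CTS B-27. Groups at days 5, 7, 9 and 11 held 5 wells and the others 3. The series text gives 3 wells for day 11 where the sample labels give 5. All wells come from 1 cell line, and the labels do not say that they were separate differentiation runs, so p-values measure the spread between wells.

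In a heart muscle cell, calcium that enters through the surface membrane opens the ryanodine receptor RYR2, and the SR releases its store to start contraction. The pump SERCA2, made from ATP2A2, takes calcium back up and is held in check by the small membrane proteins phospholamban (PLN) and sarcolipin (SLN). Calsequestrin 2 (CASQ2) and the histidine-rich protein HRC bind calcium in the SR lumen, triadin (TRDN) links CASQ2 to RYR2, and junctophilin 2 (JPH2) ties the SR to the surface membrane. SLC8A1 (NCX1) extrudes calcium in exchange for sodium. TECRL is a protein of the endoplasmic reticulum whose loss causes an inherited arrhythmia with defective calcium release.

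The 10 genes differed in where they started: some were measured in pluripotent cells and some were near 0 until late. For context, the 250 bases upstream of the start site are given for 4 of them (RefSeq, GRCh38.p14), 5' to 3' on the gene's strand and without bases inside the GENCODE gene. Of 7 motifs searched on both strands, capitals mark the matches of 3, which may overlap one another. The letters searched for MEF2 were CTAAAAATA. Those for GATA factors were AGATAA. Those for SP1 were GGGCGG. CASQ2 and PLN are shown for the largest differences between day 9 and day 90, and TECRL for the largest between day 0 and day 9. RYR2 is shown for its counts in pluripotent cells, which exceed theirs but are not per length.
CASQ2, chr1:115768782-115768964, minus strand: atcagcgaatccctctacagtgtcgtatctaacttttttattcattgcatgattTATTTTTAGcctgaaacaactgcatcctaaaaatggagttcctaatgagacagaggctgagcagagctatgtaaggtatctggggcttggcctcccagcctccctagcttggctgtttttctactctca
PLN, chr6:118548046-118548295, plus strand: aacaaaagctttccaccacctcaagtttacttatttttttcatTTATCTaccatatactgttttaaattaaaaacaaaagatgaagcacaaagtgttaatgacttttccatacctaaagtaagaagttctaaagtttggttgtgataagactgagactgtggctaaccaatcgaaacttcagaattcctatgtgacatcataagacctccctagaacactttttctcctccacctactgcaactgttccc
TECRL, chr4:64409469-64409710, minus strand: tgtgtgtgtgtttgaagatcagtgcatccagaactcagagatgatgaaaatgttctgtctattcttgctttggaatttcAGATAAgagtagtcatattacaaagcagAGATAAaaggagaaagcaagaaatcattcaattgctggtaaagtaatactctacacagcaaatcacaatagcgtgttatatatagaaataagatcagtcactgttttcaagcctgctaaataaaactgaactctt
RYR2, chr1:237041934-237042183, plus strand: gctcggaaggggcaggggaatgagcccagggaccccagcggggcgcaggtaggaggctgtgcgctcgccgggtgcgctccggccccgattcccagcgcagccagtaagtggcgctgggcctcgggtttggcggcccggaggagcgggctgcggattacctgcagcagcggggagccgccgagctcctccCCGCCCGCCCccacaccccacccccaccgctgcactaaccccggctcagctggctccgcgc
The windows differed in base composition. Composition and matches were counted over all 250 bases of a window. Of these, 67 in CASQ2 and 8 in TECRL lie inside the gene and are not printed above. The RYR2 window was 75.2% G and C with 25 CpG sites and 2 SP1 matches, and those of PLN and TECRL were each 34.8% G and C with 1 CpG site. The CASQ2 window lay between, at 48% with 8 CpG sites. The median of 35116 RefSeq windows was 58% with 11 CpG sites. The MEF2 motif was found in 0.461% of all windows and in that of CASQ2, where 1 match lies. The GATA motif was found in 9.17% of all windows, 1 time in that of PLN and 2 times in that of TECRL. SP1 letters stood in 42.6% of all windows. RefSeq windows were matched for 9 of the 10 genes. SLN had no entry. Of the other windows, GATA letters were also in 1 of 3 for SLC8A1, and SP1 letters in that of JPH2, 1 of 2 for ATP2A2 and 1 of 3 for SLC8A1. All 250 bases of the JPH2 window, of the 3 SLC8A1 windows and of that ATP2A2 window lie inside the GENCODE gene. The letters searched for TATA were TATAAA, found in 10.7% of all windows and in 1 of 3 for SLC8A1. Those for T-box factors were AGGTGT, found in 9.57% and in 1 of 2 for ATP2A2. Those for NKX2-5 were CACTTAA, found in 2.14% and in 1 of 3 for SLC8A1. Those for MCAT were CATTCC, found in 11.9% and in the windows of RYR2, HRC and TECRL (in TECRL outside the bases shown). These matches describe letters and say nothing about binding.

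Between day 0 and day 9 the RNA of all 10 genes rose, by 1.79 to 2.22 log2 units for TRDN and ATP2A2 and by 5.33 to 6.82 for TECRL, PLN, SLN, JPH2 and SLC8A1. Of all genes tested, 17.1% were called higher in that comparison. With limma on log2(TPM + 1), 8 of 10 were called, without TRDN (0.59, adjusted p = 0.32) and CASQ2 (0.13, adjusted p = 0.60). That scale understates changes of low genes such as CASQ2, at 0.01 TPM in each day 0 well. TRDN was not low: its day 0 wells, at 7.52 to 8.14 TPM, lay inside the day 9 range of 5.76 to 22.27 TPM. Over genes that average at least 1 TPM, the median log2 change on that scale was -0.30. Levels below are CPM (counts per 1000000 counts of a library, TMM scaled) unless TPM is named. A gene was called where edgeR's adjusted p was under 0.05 and its log2 change at least 1. The median log2 change of the 10 genes was 4.50, against 0.08 over all genes tested. For 10 of 10 the CPM ranges of the 2 days did not overlap, as for 56.0% of all genes. Between day 9 and day 90, 8 of 10 rose, where 11.9% of all genes were called higher. Without day 90 replicate 4 the count was 5, as RYR2, ATP2A2 and HRC were no longer called, and with limma on log2(TPM + 1) it was also 5. The shares of all genes above belong to the main fit, and those under limma or without a well are not given here. The median change over all 10 members was 1.92, against -0.02 over all genes tested. The ranges did not overlap for 7 of 10, and for 36.7% of all genes. SLN and JPH2 were the exceptions at day 90. Both comparisons use the day 9 libraries.

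**Figure D1:**
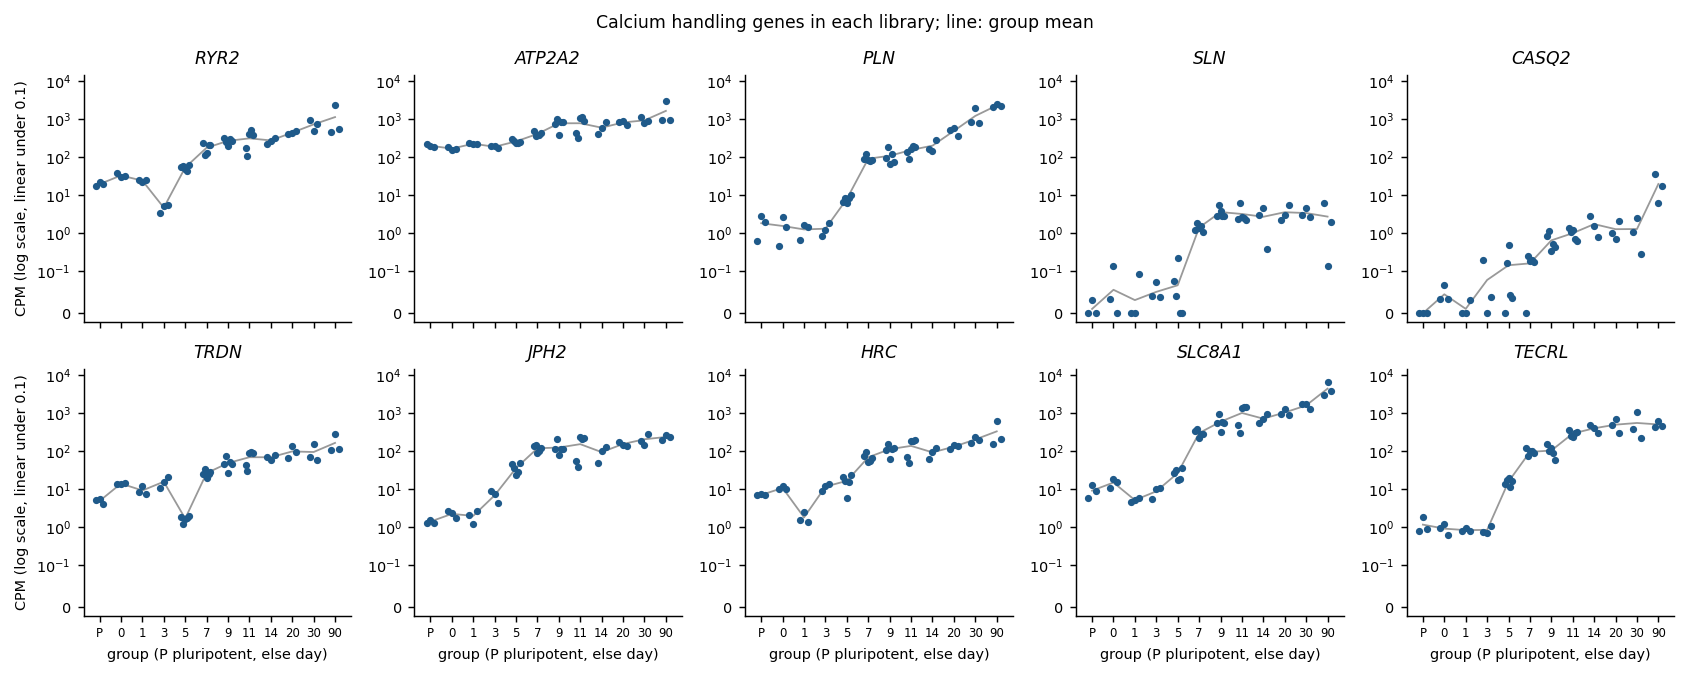
Each point is 1 library, plotted as CPM (TMM scaled, on an axis that is logarithmic above 0.1 and linear below) against the day group, with a panel for each of the 10 genes and a line through the group means. The mean of PLN lies higher at day 20, day 30 and day 90 in turn, CASQ2 stays low until day 90, and SLN reaches at most 6.23 CPM.

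Some libraries stood apart within their day, and they touch the results below. At day 90, replicate 4 had a sum of 93789 CPM over 8 cardiomyocyte markers against 28043 and 30780 in the others, and a fibroblast and epicardium sum of 2214 CPM against 6614 and 12875. At day 11, replicates 1 and 2 had less of the cardiomyocyte markers (12680 and 7293 CPM against at least 23555) and much more of the endoderm and liver markers, 5224 and 9528 CPM against at most 332. Day 9 replicate 2 was the lowest of its day in cardiomyocyte markers (10115 CPM) and the highest in endoderm and liver markers (6755 CPM). Total counts ran from 6937136 to 33498022 per library. In bulk RNA, fewer cells of a type and less RNA per cell cannot be told apart, so these values are levels per library and not per cell. The 8 markers were each over 1 CPM in every library from day 5 on. Of 5 skeletal muscle markers, the sum was 94.6 to 210 CPM at day 9 and 589 to 970 at day 90, nearly all of it CKM, which heart muscle also makes. Of the factors MYOD1, MYF5 and MYOG, the first 2 were at 3 counts or fewer in every day 90 library. The other 3 markers of that list, MYOG, CKM and ACTN3, were over 1 CPM in each of them.

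RYR2 (chr1:237042205-237833988, GRCh38), the release channel, was already measured in pluripotent cells, at 17.4, 21.5 and 19.6 CPM. CPM is not per length. In TPM these wells were low, at 0.62 to 0.89, inside the range of PLN there (0.21 to 1.01 TPM). Day 0 wells held 37.2, 30.4 and 31.2 CPM, above every pluripotent well, but the log2 change of 0.76 was not called. RYR2 then dropped before it rose. At day 1 the wells held 25.1, 22.3 and 24.7 CPM and at day 3 they held 3.34, 5.18 and 5.51 CPM, which do not overlap. That fall was -2.36 on the log2 scale (SE 0.44, adjusted p = 7.7e-05). Here 3 of 10 members were called (RYR2 lower, JPH2 and HRC higher), among 17.8% of all genes. Day 5 wells held 43.3 to 61.9 CPM, an increase of 3.51 (SE 0.44, adjusted p = 2.1e-07), and day 7 wells held 113 to 231 CPM, a further 1.73 (SE 0.33, adjusted p = 0.00037). At day 9 the 5 wells were at 323, 256, 200, 297 and 267 CPM, and at day 90 the 3 wells were at 451, 563 and 2393 CPM. The day 90 wells all lay above those of day 9, with replicate 4 far above the other two. The log2 change was 2.08 (SE 0.36, adjusted p = 1.3e-05), and without that replicate it was 0.92, adjusted p = 0.022, under the size that counts as a call.

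TRDN (chr6:123216339-123637093), the junction protein that carries calsequestrin, followed another path. It was higher at day 0 than in pluripotent cells, the 1 of 10 members called there, among 2.73% of all genes called higher. Pluripotent wells held 5.1, 5.6 and 4.05 CPM and day 0 wells 14.1, 14 and 14.5, a log2 change of 1.52 (SE 0.39, adjusted p = 0.016). This call was lost when any 1 pluripotent replicate was left out (adjusted p of 0.0515 to 0.0724). Day 3 wells were at 11, 15.5 and 21 CPM and day 5 wells at 1.2 to 2.01 CPM. TRDN thus fell, by -3.22 (SE 0.36, adjusted p = 1.5e-08), while 5 other members rose between these days. The 6 of 10 called stand against 10.1% of all genes called in either direction. By day 7 the wells were at 20.2 to 34 CPM, a rise of 3.97 (SE 0.34, adjusted p = 7.3e-11), and this was among the 8 of 10 members called higher from day 5 to day 7. Of all genes, 2.74% were called higher there. At day 90 the wells held 107, 280 and 113 CPM against 27.6 to 74.5 CPM at day 9, without overlap (log2 change 1.76, SE 0.32, adjusted p = 3.2e-05).

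An RNA on the other strand of the locus, TRDN-AS1, followed a later course. It stood at 0.209 ± 0.116 CPM (SD, n = 5) at day 9, at 8.49 ± 5.3 (SD, n = 3) at day 20, 42.7 ± 24.2 at day 30 and 68.1 ± 15.2 at day 90. Whether the counting used strand is not given in the sources used here, so reads of TRDN and TRDN-AS1 cannot be told apart with certainty. PLN lies within CEP85L on the other strand, and SLC8A1 shares its locus with SLC8A1-AS1, which stayed at or below 1.03 CPM on average in every group.

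CASQ2 (chr1:115700007-115768781) and HRC (chr19:49151198-49155424) both buffer calcium inside the SR, at 0.108 and 25.5 TPM on average at day 9 and at 2.2 and 51 TPM at day 90. CASQ2 had 0 counts in all 3 pluripotent wells, and 4 counts in the 3 day 0 wells together. Day 9 held 84 counts over 5 wells, a ratio of 13.8 after scaling, with a counting interval of 5.18 to 51.6 (exact, 95%). Up to day 30 no well passed 2.81 CPM. At day 30 the wells held 1.06, 2.5 and 0.278 CPM, and at day 90 they held 36, 6.05 and 16.9 CPM. The lowest well at day 90 is the library rich in cardiomyocyte markers. In the same order of day 90 wells, the fibroblast and epicardium sums were 12875, 2214 and 6614 CPM. The smooth muscle sums were 1353, 391 and 1196 CPM, so both ranked the wells as CASQ2 did. The part of the cell mix in the CASQ2 values was not tested. The log2 change of CASQ2 from day 30 to day 90 was 3.99 (SE 0.78, adjusted p = 0.001), and from day 9 to day 90 it was 4.94 (SE 0.65, adjusted p = 1.6e-07). CASQ2 and SLC8A1 were the 2 of 10 members called higher from day 30 to day 90, where 2.65% of all genes were. In a fit on only those groups neither was called (adjusted p of 0.21 for CASQ2 and 0.32 for SLC8A1), and leaving out 1 well gave 1 to 4 members, with CASQ2 among them each time.

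**Figure D2:**
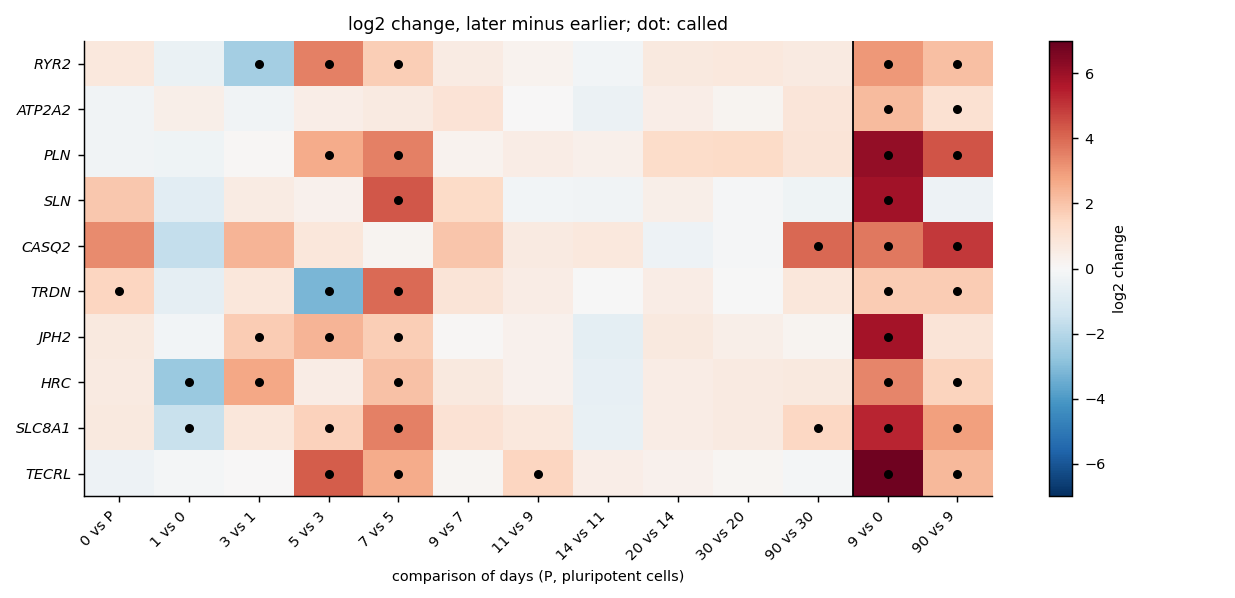
Log2 change of CPM (later minus earlier) for each of the 10 genes in the 13 comparisons, drawn from edgeR's fit, with calls (adjusted p under 0.05 and log2 change of at least 1) marked. Among neighbouring days, calls gather at day 3 to day 5 and day 5 to day 7, and no member is called in the steps from day 11 to day 30. TRDN is lower at day 5 than at day 3. All 10 are called at day 9 against day 0 and 8 at day 90 against day 9.

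HRC, by contrast, was measured early and moved both ways. Day 0 wells held 10.3, 12 and 10.2 CPM, day 1 wells 1.55, 2.51 and 1.4, and day 3 wells 9.14, 12.5 and 13.7. The fall at day 1 was -2.57 (SE 0.49, adjusted p = 0.00015) and the rise to day 3 was 2.69 (SE 0.49, adjusted p = 4.8e-05). HRC and SLC8A1 were the 2 members called lower at day 1, among 9.66% of all genes. Day 7 wells held 53.7 to 94.5 CPM, 2.06 above day 5 (SE 0.35, adjusted p = 7.9e-05). At day 90 the wells held 155, 642 and 209 CPM against 63.9 to 153 at day 9, a change of 1.56 (SE 0.38, adjusted p = 0.001). That call was lost without day 90 replicate 4, where the change was 0.68 and the adjusted p 0.17.

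JPH2 (chr20:44111695-44187578), which holds the junction together, had its called rises between neighbouring days before day 9. It was at 1.25 to 2.65 CPM at day 1, at 4.23, 7.48 and 9.06 CPM at day 3, and at 23.8 to 47.9 CPM at day 5. The steps were 1.79 (SE 0.49, adjusted p = 0.0046) and 2.38 (SE 0.44, adjusted p = 0.00013), with 1.74 more to day 7 (SE 0.35, adjusted p = 0.00081). At day 9 the wells held 114, 206, 78.6, 115 and 116 CPM, and at day 90 they held 200, 276 and 240. The ranges overlap through 1 day 9 well, replicate 10. The change of 0.92 (SE 0.38, adjusted p = 0.053) was not called.

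ATP2A2 (chr12:110280756-110351093), the calcium pump, was the most abundant member per length in pluripotent cells and at day 0. Pluripotent wells held 217, 194 and 187 CPM and day 0 wells 181, 157 and 165. Day 9 wells held 392 to 1037 CPM, above every day 0 well, a change of 2.22 (SE 0.35, adjusted p = 2.3e-06). From day 5 to day 7 the change was 0.65 and was not called. At day 90 the wells held 938, 3063 and 963 CPM, which overlap with day 9. The change of 1.09 (SE 0.31, adjusted p = 0.0055) was called, but without day 90 replicate 4 it was 0.29 with an adjusted p of 0.50.

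PLN (chr6:118548298-118560730), the pump's inhibitor, rose in both steps from day 3 to day 7 and again between day 9 and day 90. It was at 0.47 to 2.88 CPM in the 12 libraries up to day 3, and at 6.04 to 10.3 CPM at day 5, a change of 2.60 (SE 0.46, adjusted p = 6.5e-05). Day 7 wells held 77.1 to 121 CPM, 3.52 higher (SE 0.36, adjusted p = 3.8e-09). Day 9 wells held 97.2, 187, 65, 120 and 73.2 CPM. Day 20 wells held 518, 583 and 370 CPM, day 30 wells 858, 2007 and 794, and day 90 wells 2111, 2508 and 2267. The high day 30 well, replicate 10, had an RNA integrity score of 7.4 and 11715812 counts. The other day 30 wells scored 9.5 and 10, with 27411186 and 23661479 counts. All 3 day 90 wells were close together and far above day 9, by 4.40 (SE 0.39, adjusted p = 1.3e-11). Between neighbouring days from 14 to 30 no step was called: 1.29 from day 14 to day 20 (adjusted p = 0.51) and 1.31 from day 20 to day 30 (adjusted p = 0.084).

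SLN (chr11:107707378-107719693), the other small inhibitor of the pump, stayed low, at 6.23 CPM or less in every well. Day 0 held 5 counts in 3 wells together, and day 5 held 8 counts in 5 wells. Day 7 wells were at 1.04 to 1.8 CPM, a ratio of 21.5 to day 5 with a counting interval of 10.7 to 50.5. At day 9 the wells held 2.77, 5.65, 3.77, 2.79 and 2.9 CPM, a ratio of 62.5 to day 0 with a counting interval of 26.6 to 193. At day 90 they held 6.05, 0.139 and 1.96 CPM, and the lowest of these was replicate 4. The change from day 9 to day 90 was -0.37 (SE 0.63, adjusted p = 0.68), and 0.17 without that replicate.

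SLC8A1 (chr2:40097270-40611053), the exchanger, was among the 4 members called at day 5 to day 7 with a change of more than 3. It fell at day 1, from 11.1, 18.8 and 15.3 CPM to 4.55, 5.3 and 5.73, by -1.53 (SE 0.43, adjusted p = 0.0075). Day 5 was 1.59 above day 3 (SE 0.39, adjusted p = 0.0034) and day 7 was 3.50 above day 5 (SE 0.35, adjusted p = 1.9e-09). Day 9 wells held 571, 950, 328, 607 and 563 CPM. Day 30 wells held 1731, 1801 and 1323, and day 90 wells 2991, 6632 and 3810. All day 90 wells lay above those of day 30, and day 90 was 2.89 above day 9 (SE 0.36, adjusted p = 3.3e-08). The last step was 1.47 (SE 0.41, adjusted p = 0.021), and without day 90 replicate 4, or day 30 replicate 3, it was not called. Nor was it called with a sequencing lane term in edgeR (1.33, adjusted p = 0.0575) or with limma on log2(TPM + 1) (0.63, adjusted p = 0.28).

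TECRL (chr4:64275257-64409468) rose between day 3 and day 5. The 3 day 3 wells held 0.755, 0.707 and 1.09 CPM, and the 5 day 5 wells 13.6, 17.8, 20, 11.4 and 17. That change, 4.22 (SE 0.43, adjusted p = 2.5e-09), was the largest of any member between those days. It rose by 2.60 to day 7 (SE 0.30, adjusted p = 5e-08) and by 1.49 from day 9 to day 11 (SE 0.28, adjusted p = 0.0018). In this last step it was the 1 member called, among 0.396% of all genes called higher. Day 9 wells held 57.4 to 151 CPM and day 11 wells 232 to 363. The day 11 wells low in cardiomyocyte markers, replicates 1 and 2, had 363 and 254 CPM of TECRL, against 232, 307 and 318 in the others. At day 90 the wells held 429, 647 and 455 CPM, 2.28 above day 9 (SE 0.32, adjusted p = 2.7e-07).

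From day 7 to day 9 no member was called by edgeR, where 1.28% of all genes were. Unadjusted p was under 0.05 for 6 of 10, a different threshold that cannot be set against that share. The closest was ATP2A2 at 0.93 with an adjusted p of 0.078. DESeq2 called 1 member there, SLC8A1. None was called either in the steps 11 to 14, 14 to 20 and 20 to 30, where 0.697%, 0.0479% and 2.02% of all genes were. Unadjusted p was under 0.05 for 0, 1 and 1 members in those steps. DESeq2 called 0, 0 and 1, the last being PLN. The shares of all genes at unadjusted p under 0.05, or called by DESeq2, are not given here.

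On the deposited TPM scale, which is per transcript length, PLN and SLC8A1 changed places with the pump. TPM is scaled to 1 sum per library, and over the 13535 genes that average at least 1 TPM the median log2 change from day 30 to day 90 was -0.65. In that step RYR2, ATP2A2, TRDN, JPH2 and HRC were lower in TPM and higher in CPM, and none of them was called. From day 11 to day 14 the same held for 6 members in the other direction, again with none called. No called member changed direction between the scales in any of the 13 comparisons. At day 9 the order by mean TPM was ATP2A2 (91.9 ± 54.3, SD, n = 5), SLC8A1 (80.4 ± 38.7), PLN (26.3 ± 12.1), HRC (25.5), TECRL (24.1 ± 4.45), TRDN (13.8 ± 7.06), JPH2 (12.8), RYR2 (8.28 ± 4.13), SLN (2.88) and CASQ2 (0.108). The wells' ranges overlapped for each pair of neighbours in that order except RYR2 with SLN and SLN with CASQ2. At day 90 SLC8A1 (441 ± 246, n = 3) and PLN (378 ± 101) came first and overlapped, ahead of ATP2A2 (133 ± 121), TECRL (90.7 ± 46.3), HRC (51), TRDN (42.8 ± 32.3), RYR2 (24.2 ± 26.5), JPH2 (16.7), CASQ2 (2.2) and SLN (1.36). There the ranges did not overlap between PLN and ATP2A2, nor between JPH2 and CASQ2, and they did for the other neighbours. The shares of the members' summed TPM do not depend on that scaling. ATP2A2 made up 60.2 ± 2.99% (SD, n = 3) at day 0, 30.5 ± 4.38% (n = 5) at day 9 and 9.96 ± 3.87% (n = 3) at day 90. PLN made up 1.21 ± 0.892%, 9.35 ± 1.88% and 34.6 ± 7.6%. SLC8A1 made up 6.18 ± 1.85%, 27.8 ± 2.43% and 37 ± 2.34%, and TRDN 20.2 ± 0.655%, 4.72 ± 0.326% and 3.37 ± 0.733%. SLN and CASQ2 were at most 0.382% and 0.502% of the sum in any day 90 well.

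Ratios within a library put an inhibitor beside its target, a buffer beside its channel. The log2 TPM ratio of PLN to ATP2A2 was -1.79, -1.30, -1.42, -1.69 and -2.39 at day 9 and 2.29, 0.85 and 2.38 at day 90. All day 90 wells were above all day 9 wells. The difference of 3.56 had an exact two-sided permutation p of 0.0357, the smallest that 3 against 5 wells allow, and 0.0536 after adjustment over the 3 ratios. SLN to PLN was -3.13 ± 0.51 (SD, n = 5) at day 9 and -9.05 ± 2.7 (n = 3) at day 90, a difference of -5.92 (exact permutation p = 0.0357, adjusted 0.0536). Day 90 replicate 4, with 2 counts of SLN, lay at -12.01 and the others at -6.71 and -8.42, and without it the difference was -4.44. CASQ2 to RYR2 was -6.06 ± 0.596 and -3.15 ± 2.53, a difference of 2.91 (exact permutation p = 0.107, adjusted 0.107). In the CASQ2 ratio, day 90 replicate 4 lay at -5.96, inside the day 9 range, and the others at -1.05 and -2.45. None of the 3 passed 0.05 after adjustment.

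**Figure D3:**
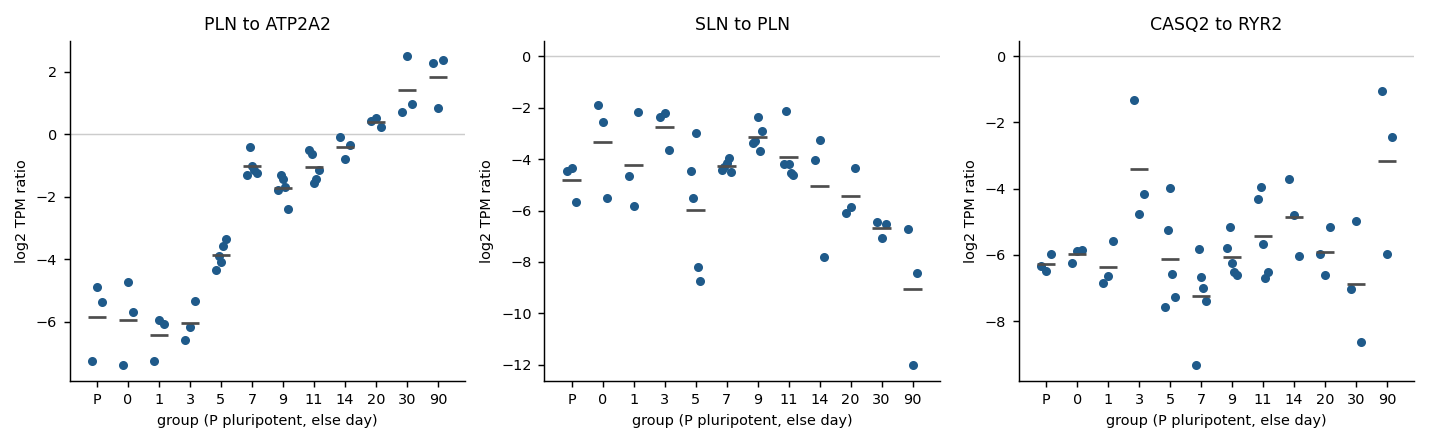
Log2 TPM ratio (pseudocount 0.01) of PLN to ATP2A2, SLN to PLN and CASQ2 to RYR2 in each library by day group, with group means. PLN to ATP2A2 is below 0 in every well up to day 14 and above 0 in every well of days 20, 30 and 90.

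Set against 8 cardiomyocyte markers in the same library, the members split. In mean log2 TPM relative to the markers, PLN was 2.75 higher at day 90 than at day 9, CASQ2 2.82, SLC8A1 1.28 and TRDN 0.36, with ranges that do not overlap. ATP2A2 was -0.80 and JPH2 -0.72, also without overlap. RYR2 (-0.09), HRC (-0.44), TECRL (0.62) and SLN (-3.16) had ranges that overlap. CASQ2 at day 90 lay at -5.71, -9.39 (replicate 4) and -7.06, and its highest day 9 well at -9.63. The lowest day 90 well of TRDN lay at -3.25 and its highest day 9 well at -3.27. The comparison with the markers was not tested. The summed marker CPM was itself 10115 to 24285 at day 9 and 28043 to 93789 at day 90.

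**Figure D4:**
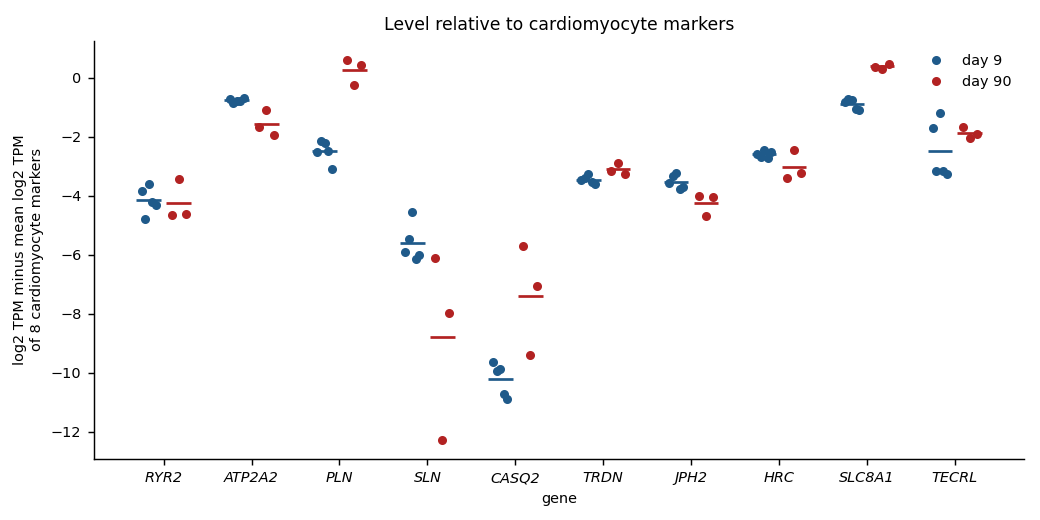
Log2 TPM of each gene minus the mean log2 TPM of 8 cardiomyocyte markers (TNNT2, ACTN2, MYH6, MYH7, TTN, MYL7, TNNI1, MYBPC3) in each library of day 9 (5 points) and day 90 (3 points), with a line at each mean. PLN, CASQ2 and SLC8A1 are higher at day 90 than at day 9, ATP2A2 and JPH2 lower.

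Early and late libraries shared sequencing lanes, and early values were set beside the later level of the same lane. In the 12 libraries of pluripotent cells and days 0, 1 and 3, PLN ran from 0.47 to 0.834 CPM in lane 1, where the later libraries averaged 190 CPM, and from 2.69 to 2.88 CPM in lane 4, where they averaged 836. Early PLN was 0.247% to 0.699% of the later mean of its lane (Pearson r of log2 values 0.84, as a description, over 12 libraries that share lanes). For TECRL r was 0.68 and the median share 0.333%, and for SLC8A1 0.64 and 0.993%. For TRDN r was -0.09 and the median share 20.9%, for RYR2 0.24 and 6.38%, and for HRC 0.23 and 7.01%. ATP2A2 gave -0.45 and 30.4%, JPH2 -0.27 and 1.6%, CASQ2 -0.26 and 1.76%, and SLN 0.18 and 1.31%. CASQ2 and SLN held at most 5 counts in any early library. The cardiomyocyte marker TNNT2 gave 0.69 and 0.51%. Whether reads passed between libraries of a lane was not tested.

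**Figure D5:**
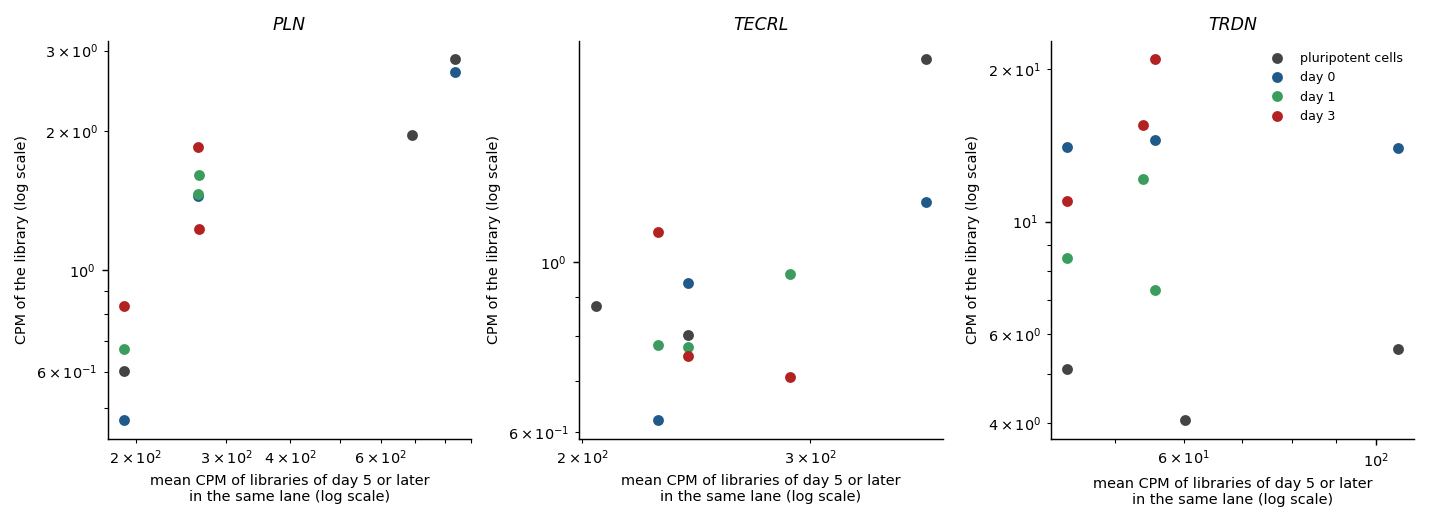
CPM of PLN, TECRL and TRDN in each early library (pluripotent cells, days 0, 1 and 3) against the mean CPM of the later libraries in the same sequencing lane, both on log axes. PLN is lowest in the lane with the lowest later mean and highest in that with the highest, and TRDN shows no such order.

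Among genes not in the set, CLIC5, SMPX, MYOZ2, PPP1R3A and HSPB7 had profiles most like the members' mean over the 12 group means (Pearson r of 0.995, 0.995, 0.995, 0.994 and 0.993, out of 8039 candidate genes). The closest to single members were TRIM55 for JPH2 (0.996), FITM1 for PLN (0.995), MB for SLC8A1 (0.994), TNNT2 for TECRL (0.993) and CADM4 for RYR2 (0.986). SLN was closest to AC020909.2 (0.984), ATP2A2 to PCGF5 (0.983), CASQ2 to UACA (0.973) and TRDN to FAM189A2 (0.959). TRDN's closest gene was thus the least close of those named. Between members, the 45 pairs had a median r of 0.907, from 0.714 to 0.987, over the same 12 means. No value for pairs of other genes is given here, so these do not show that members are closer than other genes.

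Other genes of the pathway moved in both directions. Of all genes, 31.7% were called in either direction at day 9 against day 0 and 23.9% at day 90 against day 9. Of 14 genes of calcium release, 3 were called higher and 4 lower from day 0 to day 9, and 2 higher and 4 lower from day 9 to day 90. Their median log2 changes were -0.33 and 0.06, beside 0.08 and -0.02 over all genes. CAMK2D, a kinase that acts on RYR2 and PLN, rose by 3.74 and AKAP6, an anchor protein, by 2.88 in the first comparison. RYR1, the skeletal muscle channel, fell from 45.4 ± 3.91 CPM (SD, n = 3) to 7.99 ± 3.79 (n = 5). In the second, S100A1 rose by 4.23 and AKAP6 by 4.11, and RYR1 fell by 2.48. Of 9 genes of calcium uptake, 7 were tested (STRIT1 and MRLN were too low). Of these 2 were called higher and 1 lower at day 9, and 3 higher and 1 lower at day 90, with medians of -0.26 and 0.73. ERLN (endoregulin, a small inhibitor of SERCA pumps) went from 0.0111 ± 0.0192 CPM at day 0 (n = 3) to 0.659 ± 0.393 at day 9 (n = 5), and PPP1R1A, an inhibitor of protein phosphatase 1, rose by 2.19. At day 90 ATP2A1, the skeletal muscle SERCA, fell by 1.36 and ARLN, another regulin, rose by 1.27. The SERCA gene ATP2A3 fell by 2.78 and then rose by 2.17, with 40.1 ± 2.63 CPM at day 0 (SD, n = 3) and 5.81 ± 1.03 at day 9 (n = 5).

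The lumen and junction list of 12 genes had 6 called higher and 1 lower at day 9 against day 0, and 6 higher and 2 lower at day 90 against day 9, with medians of 1.2 and 0.73. Sarcalumenin (SRL), a calcium-binding SR protein, rose by 6.95 and BIN1, which shapes T-tubules, by 2.10, while JPH4, a neural junctophilin, fell by 4.92. At day 90 the other calsequestrin, CASQ1, rose by 2.95 over day 9, from 2.88 ± 1.12 CPM (n = 5) to 22.1 ± 1.81 (n = 3). CAV3 went from 0.0151 ± 0.0209 to 2.12 ± 0.815 CPM, and JPH4 rose by 2.02. Calcium entry and extrusion at the cell membrane had 8 of 13 genes called higher and 1 lower at day 9, and 6 higher and 4 lower at day 90, with medians of 1.34 and 0.21. The L-type channel genes CACNA1D, CACNA1C and CACNB2 rose by 5.49, 3.65 and 3.22 in the first comparison. CACNA1C and CACNB2 rose again, by 2.48 and 2.02 (CACNA2D1, an accessory subunit, by 1.71), to 213 ± 143 and 115 ± 45.9 CPM at day 90. Between days 5 and 7, where 2.74% of all genes were called higher, the count was 0 of 14 in the release list, 0 of 7 in the uptake list, 3 of 12 in the lumen and junction list and 4 of 13 in the membrane list.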

How the data were processed

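RNA of 44 wells was measured by stranded total RNA sequencing. Per the submitters' processing notes the authors used cutadapt, STAR 2.5.2b and RSEM 1.2.31 with hg38. Which tool did what, the annotation and any use of strand are not given in the sources used here. The authors deposited estimated counts per gene, unscaled, of which 93.8% were whole, and TPM, per length and scaled to the same sum in each library. They also deposited the lane and an RNA integrity score (7.4 to 10) for each library. Per the labels, each library belongs to 1 day and 1 replicate.

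Counts were rounded, filtered with filterByExpr, TMM scaled and tested with edgeR 4.0.16 (R 4.3.3, quasi-likelihood, 12 group means over all 44 libraries, Benjamini-Hochberg over 22955 genes, called at adjusted p under 0.05 and log2 change of at least 1). The script was tested on simulated counts. SE is the log2 change divided by the root of F. Ratios used log2(TPM + 0.01) and exact permutation tests (SciPy 1.17.1). Counting intervals cover counting error only. Alternatives used DESeq2 1.42.0, limma 3.58.1 on log2(TPM + 1), other scaling, filters, sets of libraries, a lane term, a replicate block and left-out wells.

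Members and gene lists were chosen with earlier results of these data known. The text names all 10 members, up to 3 called genes of each list with the largest change, and the genes closest in profile (that for HRC is not reported here). Genes were matched with GENCODE 29 (56769 of 60499 identifiers). Replicate numbers were not used to pair wells in the main fit. In each comparison with 3 or more shared numbers at least 1 pair had a correlation of deviations of 0.1 or less. For day 9 against day 7 the lowest was 0.0546, the mean 0.218 and the highest 0.454. A low value in 1 pair does not show that wells were unpaired. Comparisons with 2 shared numbers are too few pairs to decide; their mean correlation was highest for day 20 against day 14, at 0.582.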

Additional observations from a re-analysis of the deposited data

Results flagged for a closer look

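SLN at day 11 was flagged because 1 of its 5 wells lay far from the others: replicate 2 held 6.23 CPM, the nearest other well 2.72 and the lowest 2.24, so the gap was 0.882 of the whole range. Replicate 2 of day 11 is the library lowest in cardiomyocyte markers (7293 CPM in sum) and highest in endoderm and liver markers (9528 CPM) of its day, and the part of these in the SLN value was not tested. It was the 1 case among 43 sets of 5 values examined, and chance alone marks about 1 in 20.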

How the results depend on the processing

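Of the alternatives tried on the counts of members called and on the ratios, 214 gave a count within 1.5 times the main one or a ratio on the same side of the threshold, and 23 did not. Except where stated, the share of all genes called under an alternative is not given, so its count of members has no share beside it. The steps are named here by their days, as in 9 to 7 for day 9 against day 7. Under limma on log2(TPM + 1) the members called numbered 0 (0 to pluripotent), 0 (1 to 0), 1 (3 to 1), 1 (90 to 30) and 5 (90 to 9). A fit on only the groups compared called 2 (9 to 7) and 0 (90 to 30, where 3 genes were called in all). DESeq2 called 1 (9 to 7) and 1 (30 to 20), no filter on low counts 1 (30 to 20), and a lane term 1 (90 to 30). With day 11 taken only from replicates 5, 6 and 7, an alternative chosen after seeing the data, 2 members were called (SLC8A1 and TECRL higher, 11 to 9) and 1 (JPH2 lower, 14 to 11). The cause was not tested for any of these.

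Leaving out 1 well at a time gave 0 to 1 members called (0 to pluripotent), 0 to 1 (9 to 7, ATP2A2 without day 9 replicate 2), 0 to 1 (30 to 20, PLN without day 30 replicate 3), 1 to 4 (90 to 30, with 4 without day 30 replicate 10) and 5 to 9 (90 to 9, with JPH2 added without day 9 replicate 10). The SLN change from day 9 to day 90 ran from -1.73 to 0.17, and of all settings it was reversed without day 90 replicate 4. JPH2 in that step was also called with DESeq2, RLE scaling and the stricter filter.

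With the replicate number as a block, 1 member, PLN, was called in the step from day 14 to day 20 (1.69, adjusted p = 0.038, over 2 shared numbers whose correlations of deviations were 0.553 and 0.611), and ATP2A2 was no longer called between day 9 and day 90. The block left the number of members called elsewhere within 1.5 times. Of 5 wells at day 9, 4 correlated best with the day 7 well of their own number, and in no comparison with 3 or more shared numbers did all. The ratio differences under the block were 3.48 (log2 TPM ratio of PLN to ATP2A2), -6.73 (SLN to PLN) and 2.92 (CASQ2 to RYR2), over the 2 shared numbers. Low totals limit SLN and CASQ2 most, since 3 counts came to 0.0896 to 0.432 CPM depending on the library.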
